A study of Rattus norvegicus with 6 samples.

Results

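Collagens are the main structural proteins of the matrix around fat cells, and the measurements below cover every collagen chain on the array. Members were the probe sets annotated with exactly 1 gene symbol made of Col, a type number, the letter a and a chain number, such as Col5a3. There were 58 such probe sets among 31099 in the table, and they stood for 41 collagen genes among 14217 genes. The fibrillar class (types I, II, III, V and XI) held 9 genes, the basement membrane class (IV, XV and XVIII) 7, the microfibril class (VI) 5 and all other types 20. Of the 41 genes, 27 had 1 probe set, 11 had 2 and 3 had 3.

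The tissue was visceral fat beside the pancreas, taken from outbred Wistar rats and hybridised to 1 Affymetrix rat genome array per rat. Lean rats (lean 14, lean 18 and lean 19) ate a standard chow diet, and obese rats (obese 29, obese 32 and obese 42) were fed a cafeteria diet of high caloric content over 30 days. The design asks how expression in this depot differs between these 3 lean and 3 obese rats. The sources used here do not give age, sex or body weight. By the labels, 5 arrays repeat the analysis of samples recorded before, and obese 42 does not. Values are log2 probe set levels, on which a difference of 1 is 2-fold, and the number of arrays limits the precision.

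Some facts of the arrays touch the results. Lean 14 carried pancreatic acinar transcripts: the 17 measured acinar markers had a mean level of 8.40 there against 4.62 to 4.98 on the other 5 arrays. Of these 14 were lower in obese rats, with Pnliprp1 at -1.64, Ctrc at -1.62, Cela3b at -1.247 and Cel at -1.21. Such a difference can rest on lean 14 alone: Prss1 was at 10.62 there and at 4.30 to 5.07 on the other arrays. Cela3b was different, at 9.65, 9.33 and 8.46 on lean 14, 18 and 19 and at 9.13, 6.15 and 8.42 on obese 29, 32 and 42. It was thus bright on every array but obese 32. Cpa1 was bright on obese 32 (8.14) as well as on lean 14 (8.66). Obese 42 had the largest 3' minus 5' value over the control transcripts (1.28, where the other arrays had 0.79 to 1.10), a measure of RNA integrity. That is the mean of 3 control transcripts, and for hexokinase alone obese 42 was the lowest array at 1.04 and the group difference was -0.084. The mean was 0.12 higher on the obese arrays (exact two-sided permutation p = 0.4; 3 against 3 cannot go below 0.1). The 19 measured adipocyte markers, which check the tissue label, had mean levels of 11.13 to 11.72 on the arrays. In bulk tissue, fewer cells of a type and less RNA per cell cannot be told apart.

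Each collagen molecule is a triple helix of chains, which come from the same gene or from separate genes depending on the type. Fibrillar collagens assemble into the tensile fibres of the interstitial matrix, and type V sits inside type I fibrils and limits their diameter. Type IV forms the sheet of the basement membrane that surrounds every adipocyte and capillary, with types XV and XVIII attached to it, while type VI forms beaded microfibrils next to the adipocyte surface. Fat cells enlarge inside this scaffold, and stromal fibroblasts, adipocytes, vessel walls and mesothelium all make parts of it.

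No collagen gene passed limma's test on 14217 genes at an adjusted p under 0.05, a threshold that 0.00703% of all genes passed. The smallest adjusted p was that of Col7a1 (0.0956), the 1 collagen below 0.10, where 0.239% of all genes lay. Those with an unadjusted p under 0.05 included 7 higher collagens (Col5a3, Col8a1, Col7a1, Col18a1, Col6a2, Col22a1 and Col11a2), against 7.23% of all genes higher at that level. There was 1 lower collagen, Col13a1, against 6.18% of all genes. Together these were 8 of 41, or 19.5%, beside 13.4% of all genes. Leaving out lean 14 gave 5 collagens (8.03% of all genes), lean 18 gave 9 (9.01%), lean 19 gave 9 (11.4%), obese 29 gave 10 (13.2%), obese 32 gave 10 (10.6%) and obese 42 gave 7 (15.7%).

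Most chains lay a little higher on the obese arrays: 35 of 41 collagen genes had a higher obese than lean mean, beside 53.7% of all genes. Their median difference was 0.14, beside 0.016 over all genes. After quantile normalization 32 of 41 were higher, beside 53.6% of all genes, with Col3a1, Col19a1 and Col24a1 turning to the lower side. The obese and lean values did not overlap for 10 higher collagens (12.2% of all genes did so upward) and 1 lower collagen (8.18% of all genes). Col2a1, Col10a1 and Col9a3 joined the genes named above in that count, which was 11 of 41 beside 20.4% of all genes. It was 14 without lean 14 (27.2% of all genes), 16 without lean 18 (28.9%), 16 without lean 19 (32.5%), 16 without obese 29 (32.7%), 19 without obese 32 (30.1%), 17 without obese 42 (35.5%) and 20 without both lean 14 and obese 42 (46.0%). Among genes above the median gene, which held 20 collagens, 4 had an unadjusted p under 0.05 (13.9% of those genes) and 4 did not overlap (20.6%). Dim genes as a whole sat higher in obese rats. Among genes with a mean level under the mean of the array medians (5.65), 67.1% were higher, their median difference being 0.061, and the 18 collagens there had 17 higher with a median of 0.15. Above that level 46.8% of all genes were higher with a median of -0.016, and the 23 collagens there had 18 higher with a median of 0.11.

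**Figure D1:**
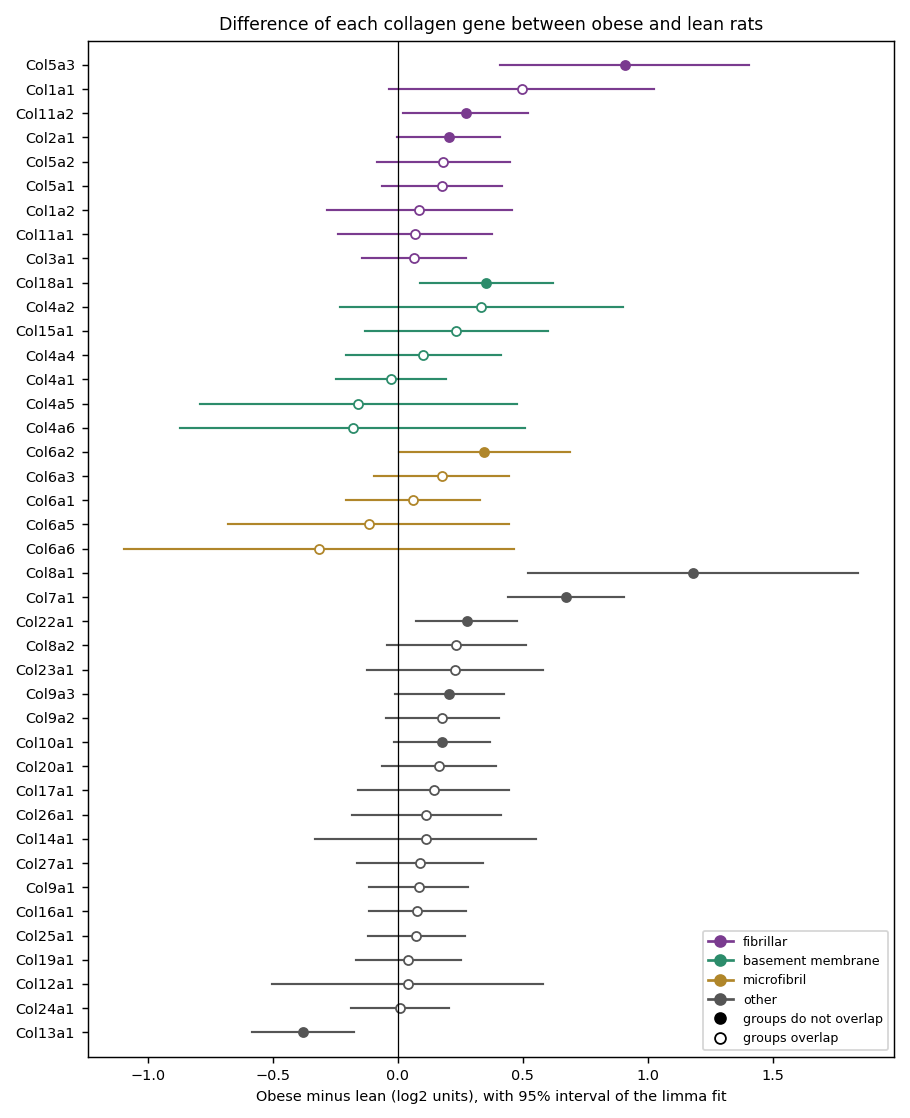
Difference between obese and lean means of each of the 41 collagen genes, in log2 units, with the 95% interval of the limma fit, grouped and coloured by class. Filled points mark the 11 genes whose groups did not overlap, 10 to the right of 0 and Col13a1 to the left, and Col8a1 lies farthest right at 1.18.

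The fibrillar class was the 1 class in which every gene was higher on the obese arrays, 9 of 9, with a median of 0.18. After quantile normalization Col3a1 lay at -0.017. The class median deviation from the lean mean ran from -0.021 to 0.067 among lean rats, and obese 29, 32 and 42 had 0.29, 0.19 and 0.083. The obese values all lay above the lean values in this class median, but obese 42 (0.083) was close to lean 18 (0.067). The lean mean is the reference here, which holds the lean arrays near 0, so this separation is a description and not a test.

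Col3a1, the chain of type III fibrils of compliant tissues, was at 13.15, 13.23 and 13.11 on lean 14, 18 and 19 and at 13.31, 13.24 and 13.13 on obese 29, 32 and 42. The groups overlapped, and the difference of 0.065 was smaller than its standard error (SE) of 0.089. Col1a2, one of the chains of type I collagen, was at 12.22, 12.19 and 12.01 on the lean arrays and 12.57, 12.13 and 11.98 on the obese arrays. Only obese 29 stood above the lean arrays, and the difference was 0.085 (SE 0.16). Without obese 29 it was -0.085.

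Col1a1, the main chain of type I collagen, was at 10.82, 11.64 and 11.40 on the lean arrays and at 12.06, 11.52 and 11.77 on the obese arrays. Obese 32 lay below lean 18, so the groups overlapped, and lean 14 was lowest of all. The difference was 0.49 (SE 0.23, limma adjusted p = 0.400), and without lean 14 it was 0.26 (SE 0.18, limma adjusted p = 0.726). The dimmer Col1a1 probe set was higher by 0.29 (SE 0.12). Col1a1 and Col1a2 chains make up the same trimer. The Col1a1 minus Col1a2 value was -1.40 on lean 14 and between -0.62 and -0.21 on the other arrays, and its group difference was 0.41 (exact two-sided permutation p = 0.3).

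Col5a3, the least widely expressed of the type V chains, had the largest difference of the fibrillar class. It was at 9.59, 10.17 and 10.31 on the lean arrays and at 10.63, 11.10 and 11.07 on the obese arrays. All obese arrays lay above all lean arrays, and lean 14 was the lowest. The means were 10.03 ± 0.38 and 10.93 ± 0.27 (SD, n = 3), a difference of 0.91 (SE 0.21), or 1.87-fold. It did not pass (limma adjusted p = 0.197). Without lean 14 the difference was 0.69 (SE 0.17, limma adjusted p = 0.436), and with each array left out in turn it ran from 0.69 to 1.06.

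The other type V chains differed less. Col5a1, the chain present in most type V trimers, was at 9.67, 9.83 and 9.71 on the lean arrays and at 9.85, 10.08 and 9.82 on the obese arrays. Only obese 29 and obese 32 exceeded every lean array, and the difference was 0.18 (SE 0.10). Its dimmer probe set was higher by 0.26 with no overlap. Col5a2, the usual partner of Col5a1, was at 11.73, 11.65 and 11.54 on the lean arrays and at 12.01, 11.78 and 11.67 on the obese arrays, a difference of 0.18 (SE 0.11) with overlap between obese 42 and the lean arrays.

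Col5a3 was then set against Col5a1 on each array. The Col5a3 minus Col5a1 value was -0.080, 0.34 and 0.60 on the lean arrays and 0.78, 1.02 and 1.246 on the obese arrays. The groups did not overlap, and the difference was 0.73 (exact two-sided permutation p = 0.1, the smallest that 3 against 3 allows). In all, 6 such chain pairs were compared, and adjusted over them this p was 0.3. A value for a pair of probe sets shows unequal change only, since probe sets differ in how brightly they report the same amount of RNA.

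The cartilage collagens of this class were dim. Col11a2, a chain of type XI collagen, was at 4.78, 5.01 and 5.01 on the lean and 5.23, 5.08 and 5.31 on the obese arrays, all below the array medians of 5.63 to 5.68. The groups did not overlap, and the difference was 0.27 (SE 0.11, limma adjusted p = 0.350). Col2a1, the type II chain, was at 4.66, 4.72 and 4.66 on the lean and 4.78, 4.88 and 4.99 on the obese arrays. It differed by 0.20 (SE 0.088) with no overlap, though the groups overlapped after quantile normalization (0.16), and its other 2 probe sets were higher by 0.15 and 0.13. Col11a1 was at 4.07 to 4.31 in lean rats and 4.13 to 4.53 in obese rats. Of 6 measured cartilage markers 5 were under the array medians, and their mean level was 5.30 to 5.45 in lean rats and 5.44 to 5.59 in obese rats. Acan, the cartilage proteoglycan, was higher by 0.33, Chad by 0.18, Matn1 by 0.18 and Comp by 0.12. In all 5 of the 6 were higher, and Cytl1, the bright one, lay at -0.034. The part of background signal in these dim values was not tested.

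**Figure D2:**
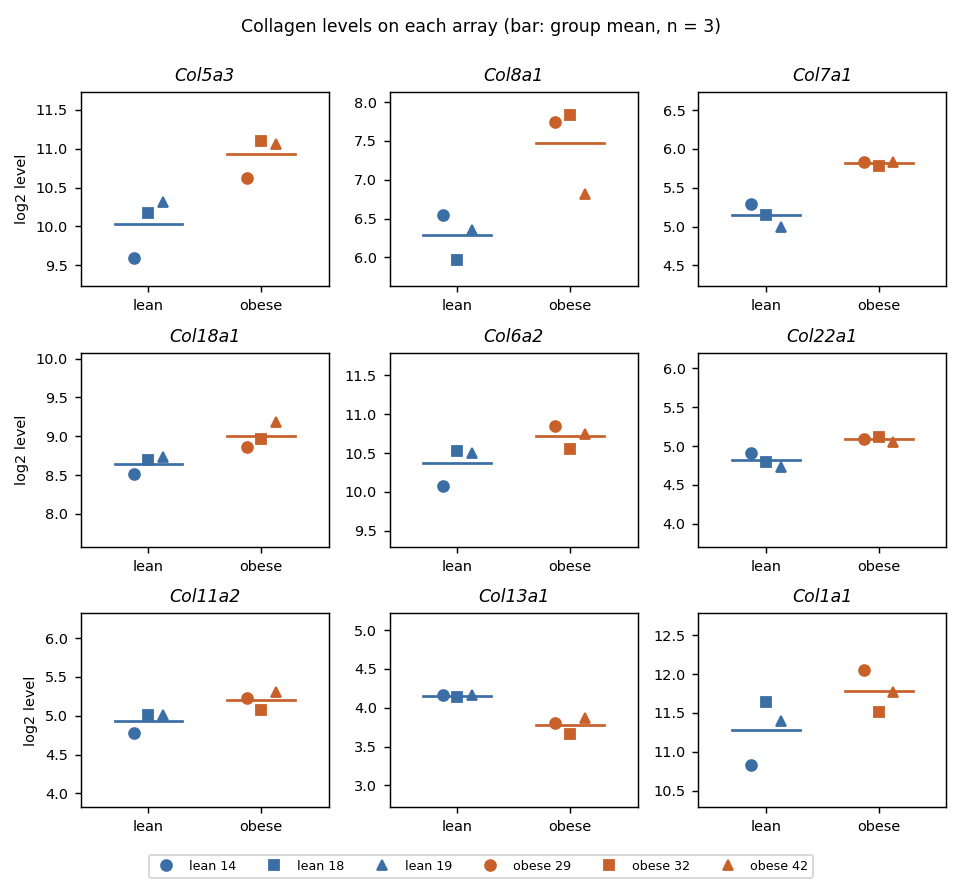
Log2 level of 9 collagen genes on each of the 6 arrays, lean in blue and obese in orange, with marker shapes for individual rats and bars for group means; every panel spans the same height in log2 units. Col5a3, Col8a1 and Col7a1 show the widest gaps between groups, and lean 14 is the lowest point for Col5a3, Col18a1, Col6a2, Col11a2 and Col1a1.

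The basement membrane class was mixed, with 4 of 7 genes higher and a median of 0.10. Its per-array median overlapped between groups (-0.089 to 0.057 in lean rats and 0.0075 to 0.22 in obese rats). Col18a1, whose protein releases the fragment endostatin, was at 8.52, 8.70 and 8.73 on the lean arrays and at 8.86, 8.96 and 9.18 on the obese arrays. All obese arrays were above all lean arrays, and the means of 8.65 ± 0.12 and 9.00 ± 0.16 (SD, n = 3) differed by 0.35 (SE 0.11, limma adjusted p = 0.296). The dimmer Col18a1 probe set differed by 0.21, also with no overlap. The Col18a1 difference was 0.29 without lean 14, 0.26 without obese 42 and 0.20 without both (limma adjusted p = 0.495).

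Col15a1, a chain that links basement membrane to the fibrils beneath, was at 11.06, 11.10 and 11.26 on the lean and 11.06, 11.66 and 11.40 on the obese arrays. Obese 29 was level with lean 14, and the difference was 0.23 (SE 0.16). The other Col15a1 probe set gave 0.061.

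The chains of type IV collagen are encoded in head-to-head pairs, in which neighbouring genes are read in opposite directions from a common control region. The bases before the start sites of Col4a1 and Col4a2 and of Col4a5 and Col4a6 are shown because of this shared arrangement. Sequences are the 250 bases before each start site from RefSeq (assembly GRCr8), read 5′ to 3′ on the gene's own strand. Capitals mark the GC box GGGCGG, the CCAAT box CCAAT or the TATA box TATAAA on either strand, and no matches overlapped one another. Col4a1 is at chr16:84885347-84885596 on the plus strand and Col4a2 at chr16:84885521-84885770 on the minus strand. Col4a5 is at chrX:109907109-109907358 on the plus strand and Col4a6 at chrX:109905945-109906194 on the minus strand.
Col4a1: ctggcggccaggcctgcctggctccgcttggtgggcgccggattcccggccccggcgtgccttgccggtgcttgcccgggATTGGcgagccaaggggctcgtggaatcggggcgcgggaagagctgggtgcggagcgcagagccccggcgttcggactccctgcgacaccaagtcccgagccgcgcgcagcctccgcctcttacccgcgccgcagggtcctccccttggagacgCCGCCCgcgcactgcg
Col4a2: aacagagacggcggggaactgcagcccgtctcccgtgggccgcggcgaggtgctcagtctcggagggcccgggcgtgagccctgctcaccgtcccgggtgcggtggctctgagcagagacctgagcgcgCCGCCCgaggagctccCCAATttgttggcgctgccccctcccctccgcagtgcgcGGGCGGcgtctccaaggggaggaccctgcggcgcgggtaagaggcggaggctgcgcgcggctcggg
Col4a5: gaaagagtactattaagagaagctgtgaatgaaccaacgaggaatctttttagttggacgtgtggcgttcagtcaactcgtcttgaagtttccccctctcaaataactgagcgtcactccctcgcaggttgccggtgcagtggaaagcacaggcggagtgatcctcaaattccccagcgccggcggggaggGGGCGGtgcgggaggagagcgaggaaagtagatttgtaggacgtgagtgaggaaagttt
Col4a6: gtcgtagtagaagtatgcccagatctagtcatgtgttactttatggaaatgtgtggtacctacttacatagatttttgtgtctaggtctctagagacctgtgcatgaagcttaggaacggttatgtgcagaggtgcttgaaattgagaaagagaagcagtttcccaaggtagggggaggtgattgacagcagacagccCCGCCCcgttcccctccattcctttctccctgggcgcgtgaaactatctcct

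The start sites of Col4a1 and Col4a2 were 77 bases apart, so the windows shared 76 bases, which held 1 GC box. Those of Col4a5 and Col4a6 were 1415 bases apart and shared no bases. Col4a1 and Col4a2 windows had 75.2% and 74.4% G and C, and those of Col4a5 and Col4a6 52.8% and 48.0%. No TATA box was found in any of these windows, which says only that those letters are not in these bases.

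Col4a1, the chain used in nearly all basement membranes, was at 12.03, 12.15 and 12.17 on the lean arrays. It was at 11.97, 12.17 and 12.12 on the obese arrays. The values overlapped throughout, with a difference of -0.027 (95% interval -0.25 to 0.19). The dimmer Col4a1 probe set read 11.18, 11.50 and 11.49 on the lean and 11.44, 11.75 and 11.75 on the obese arrays, a difference of 0.26 (SE 0.13), so the direction for Col4a1 depends on the probe set. Col4a2, its partner, was at 10.49, 11.20 and 11.14 on the lean and 11.002, 11.14 and 11.69 on the obese arrays. Lean 14 was lowest and obese 42 highest, and the other 4 arrays lay between 11.002 and 11.20. The difference was 0.33 (SE 0.24), with 0.11 once lean 14 was left out, 0.13 once obese 42 was and -0.10 without both. The Col4a2 minus Col4a1 value differed by 0.36 between groups, with overlap (exact two-sided permutation p = 0.4).

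Col4a5 and Col4a6, chains of the type IV network of smooth muscle and some epithelia, kept the same order among the obese rats. Col4a5 was at 9.71, 9.66 and 9.60 on the lean and at 10.11, 8.91 and 9.47 on the obese arrays. Col4a6 was at 6.29, 6.60 and 6.52 on the lean and at 6.94, 5.65 and 6.28 on the obese arrays, and its other probe set at 6.14, 5.89 and 6.22 and at 6.85, 4.94 and 5.91. On all 3 probe sets obese 29 was highest and obese 32 lowest of the 6 arrays. The standard deviation was 0.056 and 0.16 among lean rats against 0.60 and 0.65 among obese rats, for Col4a5 and Col4a6 in turn. The Col4a6 minus Col4a5 value stayed between -3.42 and -3.05 on all arrays, with a group difference of -0.023 (exact two-sided permutation p = 1).

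The mean level of the 9 measured mesothelial markers had the same order among the obese arrays. It was 9.42 for obese 29, 9.06 for obese 42 and 8.61 for obese 32, beside 8.76 to 8.98 in lean rats. Not every marker kept that order: among the obese arrays Wt1 was highest on obese 42, and Krt8 and Krt18 were lowest on it. Of the 9 markers 7 were higher and 2 lower in obese rats, with 0 at an unadjusted p under 0.05, beside 13.4% of all genes. Krt7, a keratin with the smallest p among them, was higher by 0.49, and Krt18, Krt19 and Krt8 by 0.28, 0.27 and 0.19. The 15 smooth muscle and pericyte markers were at 8.20 to 8.24 on the obese arrays and did not order them the same way, and on the lean arrays they ran from 8.09 to 9.55, highest on lean 19. The part of these cells in the Col4a5 and Col4a6 values was not tested. Col4a4 was dim, at 4.01 to 4.23 in lean rats and 4.05 to 4.45 in obese rats.

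The microfibril class had 3 of 5 genes higher and a median of 0.060, and the groups overlapped in the per-array class median. Col6a2 was at 10.08, 10.52 and 10.50 on the lean and at 10.85, 10.55 and 10.75 on the obese arrays. The groups did not overlap, though they did after quantile normalization, and lean 14 was below the other lean arrays. The difference was 0.35 (SE 0.15, limma adjusted p = 0.368), and 0.20 (SE 0.12) without lean 14. The dimmer Col6a2 probe set differed by 0.22 with overlap.

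Col6a1, which is encoded next to Col6a2 and joins it in 1 trimer with Col6a3, was at 11.58, 11.60 and 11.51 on the lean and 11.79, 11.40 and 11.68 on the obese arrays. The difference was 0.060 (SE 0.11). The Col6a2 minus Col6a1 value was -1.502, -1.08 and -1.005 on the lean arrays and -0.94, -0.85 and -0.94 on the obese arrays, a difference of 0.29 with no overlap (exact two-sided permutation p = 0.1, and 0.3 adjusted over the 6 pairs). Col6a3, the large chain from which endotrophin is released, was at 10.54, 10.70 and 10.77 on the lean arrays. It was at 10.72, 11.04 and 10.78 on the obese arrays, a difference of 0.17 (SE 0.12). Its dimmer probe set went the other way (-0.28, SE 0.35), with 6.29 on obese 42 against 7.07 to 7.75 on the other arrays. Endotrophin itself is a protein fragment and is not measured by RNA.

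Col6a5 and Col6a6, neighbours that encode alternative chains to Col6a3, were both lower on average. Col6a6 was at 8.68, 8.75 and 8.81 on the lean and 8.61, 7.60 and 9.08 on the obese arrays, a difference of -0.31 (SE 0.33) that rested on obese 32. Col6a5 was at 5.45 to 6.29 in lean rats and 5.33 to 5.79 in obese rats. Obese 32 was the lowest array for 7 collagens (Col4a5, Col4a6, Col6a1, Col6a6, Col12a1, Col13a1 and Col26a1), beside 18.3% of all genes.

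**Figure D3:**
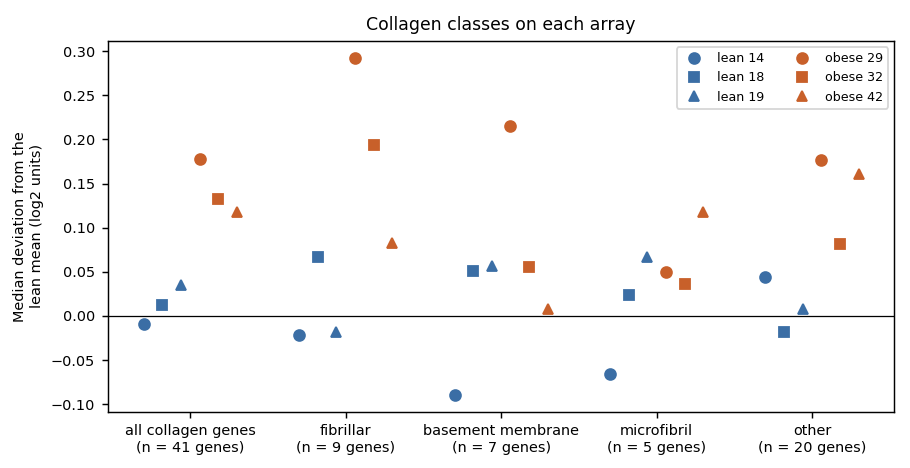
Median deviation of the genes of each class from their lean mean, in log2 units, on each array, with marker shapes for individual rats. For all collagens and the fibrillar and other classes the obese arrays lie above the lean arrays; the basement membrane and microfibril classes overlap, with lean 14 lowest in both.

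Among the other types 19 of 20 genes were higher, with a median of 0.13, and this class held both the largest difference and the smallest p, neither past the threshold. Col8a1, a short-chain collagen of vessel walls and of provisional matrix, was at 6.55, 5.97 and 6.35 on the lean arrays and at 7.75, 7.83 and 6.82 on the obese arrays. Obese 42 lay closer to the lean arrays than to the other obese arrays but above all of them. The means were 6.29 ± 0.29 and 7.47 ± 0.56 (SD, n = 3), a difference of 1.18 (SE 0.28), or 2.26-fold (limma adjusted p = 0.202). Without obese 42 the difference was 1.503 (SE 0.17) and passed (limma adjusted p = 0.0456), where 0.239% of all genes did. Leaving out lean 14 as well gave 1.63, which did not pass (limma adjusted p = 0.107). Col8a2, its partner chain, was at 7.68 to 8.06 in lean rats and 7.97 to 8.15 in obese rats, a difference of 0.23 (SE 0.12). The Col8a1 minus Col8a2 value differed by 0.95 with overlap (exact two-sided permutation p = 0.2).

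Col7a1, the collagen of the anchoring fibrils that fasten epithelia to the tissue below, was at 5.29, 5.15 and 4.996 on the lean arrays and at 5.83, 5.79 and 5.83 on the obese arrays. The obese rats were almost level, and none came near the lean values. The means of 5.14 ± 0.15 and 5.82 ± 0.027 (SD, n = 3) differed by 0.67 (SE 0.098), or 1.59-fold (limma adjusted p = 0.0956). The lean values lay below each array's median and the obese values just above it. Leaving out each array in turn gave 0.60 to 0.74. Col7a1 has 1 probe set, so no other measurement of it could be compared.

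The bases before the start sites of the 3 collagens with the largest differences are shown in the same form as those of type IV. Col5a3 is at chr8:27625949-27626198 on the minus strand, Col7a1 at chr8:118483114-118483363 on the plus strand and Col8a1 at chr11:56246532-56246781 on the plus strand of assembly GRCr8.
Col5a3: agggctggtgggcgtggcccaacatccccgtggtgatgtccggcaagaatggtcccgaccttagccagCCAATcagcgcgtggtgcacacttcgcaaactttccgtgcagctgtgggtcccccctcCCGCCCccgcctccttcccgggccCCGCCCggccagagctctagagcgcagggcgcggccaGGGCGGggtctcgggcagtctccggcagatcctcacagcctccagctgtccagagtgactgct
Col7a1: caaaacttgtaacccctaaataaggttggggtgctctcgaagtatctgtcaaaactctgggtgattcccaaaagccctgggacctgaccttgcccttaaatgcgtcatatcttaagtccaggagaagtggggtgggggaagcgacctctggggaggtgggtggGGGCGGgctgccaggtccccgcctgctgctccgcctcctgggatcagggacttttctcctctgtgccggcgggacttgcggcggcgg
Col8a1: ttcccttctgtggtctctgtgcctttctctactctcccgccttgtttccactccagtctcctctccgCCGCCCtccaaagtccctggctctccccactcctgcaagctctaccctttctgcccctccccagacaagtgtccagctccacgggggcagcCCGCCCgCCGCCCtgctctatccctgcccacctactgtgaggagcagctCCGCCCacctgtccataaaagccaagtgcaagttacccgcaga

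The GC box was found 3 times before Col5a3, once before Col7a1 and 4 times before Col8a1, and the CCAAT box before Col5a3 alone. RefSeq windows were matched for 32 of the 41 collagen genes. Of these 18 (56.2%) held a GC box, against 30.5% of all 33469 promoter windows of the same 250 bases. A CCAAT box was in 9 (28.1%, against 34.0% of all) and a TATA box in 4 (12.5%, against 12.9% of all). These are matches of letters, not measured binding. A collagen gene was counted if any of its windows matched, whereas the shares of all count single windows, so the shares are not like for like.

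Several collagens of this class attach to the surface of fibrils. Col14a1, a fibril-associated chain, was at 10.59, 10.20 and 10.41 on the lean and 10.82, 10.58 and 10.13 on the obese arrays, with overlap and a difference of 0.11 (SE 0.19). Col16a1, also fibril-associated, was at 7.99, 7.99 and 8.05 on the lean and 8.16, 8.01 and 8.09 on the obese arrays. The difference was 0.078 (95% interval -0.12 to 0.27). Col12a1 was at 7.65 to 7.90 in lean rats and 7.36 to 8.34 in obese rats. Col22a1, a chain of tissue junctions, was at 4.91, 4.80 and 4.73 on the lean and 5.10, 5.12 and 5.05 on the obese arrays. The difference was 0.27 (SE 0.086, limma adjusted p = 0.293), with no overlap and all values under the array medians.

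Col13a1, a transmembrane collagen of cell adhesion sites, was the 1 chain of this class on the lower side. It was at 4.16, 4.14 and 4.16 on the lean and 3.80, 3.67 and 3.87 on the obese arrays. The difference was -0.38 (SE 0.087, limma adjusted p = 0.193) with no overlap. All 6 values lay under each array's lower quartile (4.41 to 4.49), where the part of background signal was not tested. Col10a1, of growth plate cartilage, was at 3.73, 3.73 and 3.84 on the lean and 3.94, 3.91 and 3.98 on the obese arrays. Col9a3, a chain of cartilage type IX, was at 3.68, 3.58 and 3.79 and at 3.86, 3.96 and 3.85. They differed by 0.18 and 0.21 with no overlap, again under the lower quartiles. The remaining dim collagens were Col4a4, Col9a1, Col9a2, Col11a1, Col17a1, Col19a1, Col20a1, Col23a1, Col24a1, Col25a1 and Col26a1, 11 genes with differences of 0.0093 to 0.23. The remaining brighter collagens were Col4a5, Col4a6, Col6a5, Col6a6, Col8a2, Col12a1 and Col27a1, 7 genes with differences of -0.31 to 0.23.

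**Figure D4:**
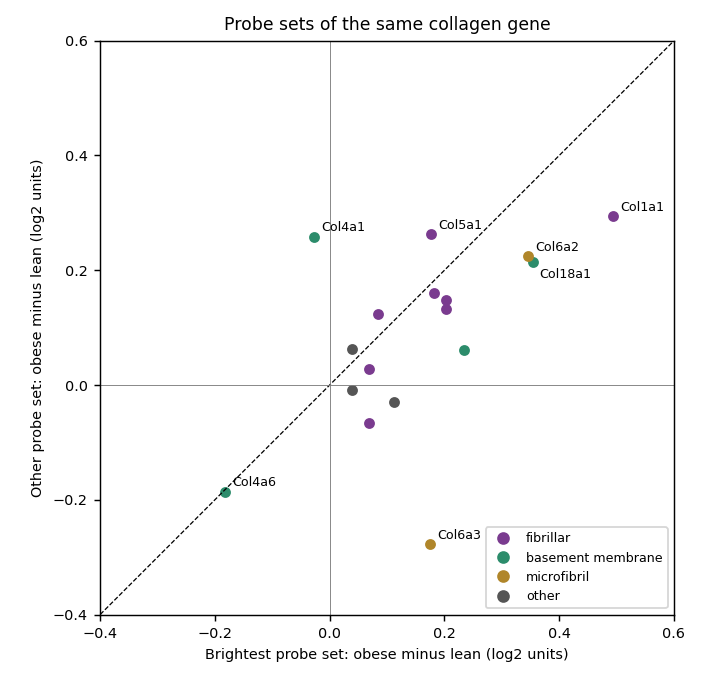
Obese minus lean difference of the brightest probe set of a gene (horizontal axis) against each other probe set of it (vertical axis), in log2 units, for the 14 collagen genes with several probe sets; the dashed line marks equal values. Col6a3 lies far below the line at 0.17 and -0.28, and Col4a1 above it at -0.027 and 0.26.

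Of the 14 collagen genes with several probe sets, Col4a1, Col6a3, Col11a1, Col12a1 and Col14a1 had probe sets on both sides of 0. The other 9 had all probe sets on the same side. Over all 58 collagen probe sets, 9 were higher and 1 lower at an unadjusted p under 0.05, beside 6.50% and 5.33% of all 31042 tested probe sets, and the smallest limma adjusted p was 0.146.

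**Figure D5:**
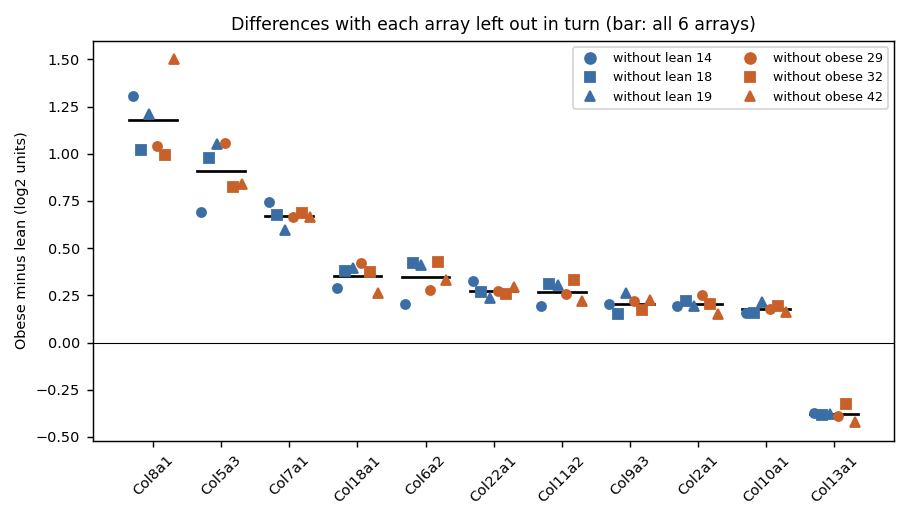
Obese minus lean difference, in log2 units, of the 11 collagen genes whose groups did not overlap, with each of the 6 arrays left out in turn; bars are the differences over all arrays. Col8a1 ranges from 0.996 to 1.503 and Col5a3 from 0.69 to 1.06; groups that do not overlap cannot change direction when an array is left out, so only the sizes are informative.

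Lean 14 was the lowest array for 13 of the 41 collagens, beside 20.4% of all genes, and for 9 of the 23 collagens above the array medians. Obese 29 was the highest array for 15 of the 41, beside 17.2% of all genes. For Col1a1, Col4a2, Col5a3, Col6a2 and Col18a1, lean 14 was the lowest array, and this was the array with the acinar transcripts. With the acinar marker level as a covariate the differences of Col1a1, Col5a3, Col18a1, Col6a2 and Col4a2 were 0.31, 0.73, 0.30, 0.23 and 0.15. Those of Col8a1 and Col7a1 were 1.27 and 0.73 in that fit, beside 1.18 and 0.67 without the covariate. The acinar level was high on lean 14 alone, so such a fit cannot tell acinar RNA from any other trait of lean 14. With the 3' minus 5' difference as the covariate, Col1a1, Col5a3, Col18a1, Col6a2 and Col4a2 differed by 0.40, 0.76, 0.26, 0.26 and 0.098. Col8a1 and Col7a1 differed by 1.43 and 0.71 in that second fit. The part of RNA integrity in the collagen values was not tested. Adipocyte markers were lowest on lean 14 too, at 11.13, with 11.34 for lean 19, 11.35 for lean 18 and 11.53 to 11.72 in obese rats. Of 19 adipocyte markers 17 were higher in obese rats, beside 53.7% of all genes, with a median of 0.28. An unadjusted p under 0.05 was found for 8, all higher, beside 7.23% of all genes. Plin4 was higher by 0.86, Plin1 by 0.46, Cidec by 0.44 and Trarg1 by 0.40, all proteins of the lipid droplet or of glucose uptake. The part of adipocyte RNA in the collagen values was not tested.

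Markers of the cells that make most interstitial collagen overlapped between the groups in their mean level. The 16 measured fibroblast and progenitor markers had mean levels of 8.99 to 9.15 in lean rats and 9.01 to 9.26 in obese rats, with 9 higher, 7 lower and a median of 0.057. Of these Mfap5, a microfibril glycoprotein, was higher by 0.57, Cd248, a stromal membrane protein, by 0.44 and Fbn1, fibrillin, by 0.23, while Pdgfra, a receptor for platelet-derived growth factor, lay at -0.19. Cd248 and Pdgfra, 2 of the 16, had no overlap between the groups (12.5%, beside 20.4% of all genes). The 6 Schwann cell markers were at 7.94 to 8.01 in lean rats and 8.16 to 8.23 in obese rats. S100b was higher by 0.43, Mbp by 0.35, Sox10 by 0.32 and Prx by 0.21, while Pmp22 was at a difference of 0.061 and Ngfr at -0.085, so 5 of 6 were higher. S100b is also made by adipocytes. All 11 endothelial markers were lower on average, where 53.7% of all genes were higher. Of these 0 had an unadjusted p under 0.05 (13.4% of all genes) and 0 had no overlap (20.4%). Their mean level was 8.59 to 8.74 in lean rats. It was 7.99, 8.50 and 8.90 on obese 29, 32 and 42, so obese 29 was the lowest array and obese 42 the highest. Kdr lay at -0.38, Egfl7 at -0.34, Cldn5 at -0.29 and Emcn at -0.22.

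All 17 macrophage markers were lower, where 53.7% of all genes were higher. Their mean level was 9.38 to 9.88 in lean rats and 8.45 to 9.53 in obese rats, lowest on obese 42. Mpeg1 lay at -0.91, Ctss at -0.77, Lyve1 at -0.76 and Lyz2 at -0.63. Smooth muscle and pericyte markers had 3 of 15 higher, with Kcnj8 at -0.95, Mylk at -0.86, Rgs5 at -0.78 and Cspg4 higher by 0.61. Skeletal muscle markers were at 4.64 to 5.23 and 4.78 to 4.87, and 12 of the 13 had a mean level under the mean of the array medians. Of these 13, 7 were higher and 6 lower, with 0 at an unadjusted p under 0.05 (13.4% of all genes). Acta1 lay at -1.58 (SE 0.70) with overlap, as lean 18 (4.06) lay among the obese values. Tnnt3 was higher by 0.47, Atp2a1 by 0.25 and Actn3 by 0.14. Proliferation markers were at 5.53 to 5.82 and 5.02 to 6.39, highest on obese 29, with Mki67 at -0.28, Top2a higher by 0.25, Birc5 by 0.19 and Aurkb at -0.11. The part of these cells in the collagen values was not tested.

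Genes that act on collagen were read from the same fit, and 0 of them passed limma's test at an adjusted p under 0.05. Of 28 measured genes that modify, fold, cut or crosslink collagen chains, 17 were higher and 11 lower with a median of 0.070. At an unadjusted p under 0.05, 3 were higher and 0 lower, which is 10.7% of the list beside 13.4% of all genes. Plod1, a lysyl hydroxylase, was at 9.30, 9.48 and 9.38 on the lean and 9.77, 9.86 and 9.64 on the obese arrays, with no overlap and a difference of 0.37 (SE 0.096, limma adjusted p = 0.240). Plod3, a hydroxylase that also adds sugars to collagen, was higher by 0.24 (SE 0.086), and Fkbp9, a prolyl isomerase of the endoplasmic reticulum, by 0.31 (SE 0.11), both with no overlap. Sparc, which binds collagen outside the cell, was higher by 0.30 (SE 0.13) with overlap.

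Of 8 measured receptors and uptake proteins of collagen, 2 were higher and 6 lower with a median of -0.16. Cd44, a hyaluronan receptor that also binds collagen and is abundant on leukocytes, lay at -0.67 (SE 0.17) with no overlap. Ddr2, a receptor kinase for fibrillar collagen, lay at -0.23, Antxr2, which takes up type VI collagen, at -0.15, and Itga11, the integrin subunit of fibroblasts for type I collagen, was higher by 0.33. Of 21 measured genes of collagen breakdown and its inhibitors, 12 were higher and 9 lower, and 1 of each had an unadjusted p under 0.05, which is 9.52% of the list beside 13.4% of all genes. Mmp15, a membrane-bound protease, was at 7.17, 7.42 and 7.32 on the lean and 7.55, 7.90 and 8.03 on the obese arrays, higher by 0.52 (SE 0.14). Mmp9, a gelatinase of leukocytes, lay at -0.81 (SE 0.24) and was below the array medians throughout, at 4.36 to 5.25 and 3.77 to 4.28. Mmp10 and Mmp3 were higher by 0.20 and 0.17 at levels under the lower quartiles.

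Of 15 measured regulators of collagen genes, 5 were higher and 10 lower with a median of -0.043. Tgfb2, a ligand of the TGF-beta family that drives matrix production, was at 7.95, 7.87 and 7.61 on the lean and 7.54, 6.81 and 7.05 on the obese arrays. The groups did not overlap, and the difference was -0.67 (SE 0.19, limma adjusted p = 0.258). Tgfbr1, the type I receptor of that family, lay at -0.22 (SE 0.089), and Cebpb, a transcription factor of fat and stromal cells, was higher by 0.32 (SE 0.12), both with no overlap, and Pdgfra is given above.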

How the data were processed

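RNA from visceral fat beside the pancreas of 3 lean and 3 obese rats was measured on 1 array per rat. The values deposited by the authors are log2 probe set levels which the submitters' processing notes credit to RMA and affy. The sources used here do not state versions, the chip definition or the set of arrays normalized as 1 batch. Of 31099 probe sets, 57 controls were left out. The platform annotation gave 1 symbol for 20826 of the rest, several for 436 and none for 9780, and 0 symbols needed an update from the reference table. For each of 14217 genes, the probe set brightest on average was used.

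The difference, obese minus lean, was fitted in R 4.3.3 by limma 3.58.1 (two-sided, no covariate, no filter), with Benjamini-Hochberg adjustment over all genes and calls at an adjusted p under 0.05. Rats are separate animals, so p-values reflect animal and handling differences. The fit was tested on simulated data. Named collagens were those with an unadjusted p under 0.05 or no overlap, the 2 brightest of each class and 13 fixed chains, plus up to 4 genes of each of 15 lists with the smallest p; any other is given by its values as a remaining member or was picked after its values were seen. The collagens and lists were chosen with earlier results of these data known. Alternatives were other scalings, probe set rules, filters, priors and covariates, and arrays left out. Tables used Python 3.11.15, pandas 2.3.3 and scipy 1.17.1, and plots matplotlib 3.10.9.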

Additional observations from a re-analysis of the deposited data

How the results depend on the processing

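No collagen passed at an adjusted p under 0.05 in the setting with all arrays. With each array left out in turn the count was 0 to 1 (Col8a1 without obese 42), and at a threshold of 0.10 it was 1. The count over all genes, 1, became 34 at that threshold, 2 averaging the probe sets of a gene and 3 with every probe set on its own. It was 0 with arrays shifted to the same median, without both lean 14 and obese 42, and with the 3' minus 5' difference or the acinar level as a covariate, and 0 to 34 with each array left out.

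Collagens at an unadjusted p under 0.05, 8 in all, were 4 among genes above the median gene and 5 to 10 with each array left out. They were 11 with arrays shifted to the same median (26.8%, beside 14.0% of all genes) and 6 after quantile normalization (14.6%, beside 12.7%). Collagens without overlap, 11, were 4 among genes above the median gene and 20 without both lean 14 and obese 42. With each array left out they were 14 to 19, where smaller groups overlap less easily. They were 15 with arrays shifted to the same median (21.5% of all genes) and 12 after quantile normalization (19.5%). The median over all collagens, 0.14, was 0.11 after quantile normalization, 0.18 among genes above the median gene and 0.12 to 0.16 with each array left out. The basement membrane median, 0.10, was 0.23 above the median gene, 0.044 after quantile normalization, -0.089 without both lean 14 and obese 42 and 0.032 (without obese 29) to 0.17 (without lean 18) with each array left out, 0.063 being the value without lean 14. The microfibril median, 0.060, was 0.12 above the median gene, -0.052 averaging probe sets, 0.14 without both lean 14 and obese 42, 0.11 with the 3' minus 5' covariate, 0.095 with the acinar covariate and -0.021 to 0.11 with each array left out.

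Leaving arrays out cannot change the direction of groups that do not overlap, which applied to 11 of the 23 named collagens. Of all 23, 16 kept their direction in every alternative run. The others were Col3a1 (-0.017 after quantile normalization), Col4a1 (0.12 averaging probe sets, and -0.072 to 0.032 with each array left out), Col6a3 (-0.052 averaging probe sets) and Col4a2 (-0.10 without both lean 14 and obese 42). With each array left out Col1a2 ran from -0.085 to 0.21, Col6a1 from -0.021 to 0.17 and Col14a1 from -0.044 to 0.30. The cause was not tested. No paired analysis was possible because the groups share no replicate numbers. Arrays give no read depth, and the part of background signal in dim probe sets was not tested.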
